A study of Mus musculus with 42 samples.

Results

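The nasal gland and mucus genes described here are 10 genes chosen by name from the 44674 genes of the count table. They comprise the gel-forming mucins Muc5b, Muc5ac and Muc2, the scavenger-receptor glycoprotein Dmbt1, the secretoglobins Scgb1a1 and Scgb1c1, the antibacterial lectin Reg3g, the water channel Aqp5, the transcription factor Sox9 and Pigr, the receptor that carries polymeric immunoglobulin across epithelia. No measured value entered the choice. In GENCODE M21 on GRCm38, all 10 are protein-coding and 5 lie on chromosome 7. The mucins stand in a row on its plus strand, with Muc2 at chr7:141690340-141754693, Muc5ac at chr7:141788972-141819231 and Muc5b at chr7:141839070-141873084. Dmbt1 lies at chr7:131032053-131121630 and Scgb1c1 at chr7:140845547-140846769, both also on the plus strand.

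The olfactory epithelium is covered by mucus through which odorants must pass before they meet the cilia of the sensory neurons. Bowman's glands in the lamina propria, together with glands and goblet cells of the adjoining respiratory mucosa, secrete its mucins, antibacterial proteins, water and ions. Gland cells are not neurons, and phosphorylation of the ribosomal protein S6 follows activity in many cell types, so a pulldown of phosphorylated ribosomes can carry gland transcripts as well.

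Male C57BL/6NCrl mice aged 8 to 12 weeks were used, and each pool held 4 main olfactory epithelia. 5 pools had no odour, and the others followed 1 h of exposure to the odour of NCD (normal chow, 6 pools), Bacon (a bacon-flavoured diet matched to NCD in nutrients, 5 pools) or HFD (a lard-based high-fat diet, 5 pools). From each of the 21 pools, ribosomes carrying phosphorylated S6 were captured by antibody for the pulldown library, and RNA set aside before the capture gave the input library. The epithelia are whole tissue, in which fewer cells of a type and less RNA per cell cannot be told apart.

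Values are given as CPM (counts per 1e6 counts), scaled to library totals by TMM, and as the ratio of pulldown to input CPM within a pool. Libraries held 24839555 to 36781553 counts. Ribosomal RNA genes took 24.8 ± 3.63% (SD, n = 5) of the counts of no-odour inputs and 13.0 ± 2.82% (n = 16) of inputs after any odour. Inputs also differed in the balance of long and short transcripts, measured as an index: the median log2 deviation of genes with at least 6827 bases of exon minus that of genes with at most 2823, among 14409 protein-coding genes. Deviations were taken from the mean of each gene over the inputs or over the pulldowns, so the index does not compare inputs with pulldowns. The index was -0.73 in the input of no-odour pool 4 and -0.26 to 0.32 in the other inputs, with every Bacon input at 0.17 or above. The pulldown of Bacon pool 1 stood apart from the other pulldowns at 0.34. Omp, the marker of mature olfactory neurons, was at 4662 to 8815 CPM in every input. The labels and methods name no batch of library preparation, so that no values within batches can be given.

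Per kilobase of exon the genes spanned several orders of magnitude in the inputs. Scgb1c1, a secretoglobin first described in the olfactory mucosa, stood first at 17619 ± 4577 CPM per kb (SD, n = 21). Reg3g at 108 ± 25.5 and Muc5b at 95.9 ± 23.8 CPM per kb came next and did not differ beyond their spread over all inputs. Their order differed between odours, since Muc5b lay above Reg3g in Bacon inputs without overlap (127 ± 6.73 against 86.1 ± 1.94 CPM per kb), while Reg3g had the higher mean in the other groups (97 against 76.2 CPM per kb with NCD). Muc2 followed at 46.5 ± 13.6, then Aqp5 at 18.0 ± 1.32 and Sox9 at 12.8 ± 0.918 CPM per kb. Pigr at 7.82 ± 1.73 and Dmbt1 at 7.11 ± 2.25 CPM per kb overlapped, and Muc5ac, the goblet cell mucin of airway surfaces, was low at 0.185 ± 0.058. In the pulldowns Muc5b, at 216 ± 38.6 CPM per kb, stood above Reg3g at 52.8 ± 10.47. The place of Dmbt1 in the pulldowns differed between odours: it was at 3.50 ± 1.46 CPM per kb without odour, below Sox9 (10.2 ± 0.728) and Aqp5 (15.7 ± 1.92), and at 23.8 ± 5.20 with Bacon, with a mean above both.

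Scgb1a1, the secretoglobin of club cells in the lower airways, was nearly absent. It had 17 counts in all, spread over 14 of the 42 libraries with at most 2 in any library, and was not detected in the other 28. A count of 0 allows a level of up to 0.0816 to 0.112 CPM, depending on the library (3 counts, counting error only). Scgb1a1 did not pass the filter on low counts, and 9 of the 10 genes were therefore tested. Of the 31-base words in Scgb1c1 transcripts, 13.2% also occur in another gene, mainly C330022C24Rik, so part of its estimated count is uncertain; the shares of the other genes were 1.34% or less.

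**Figure D1:**
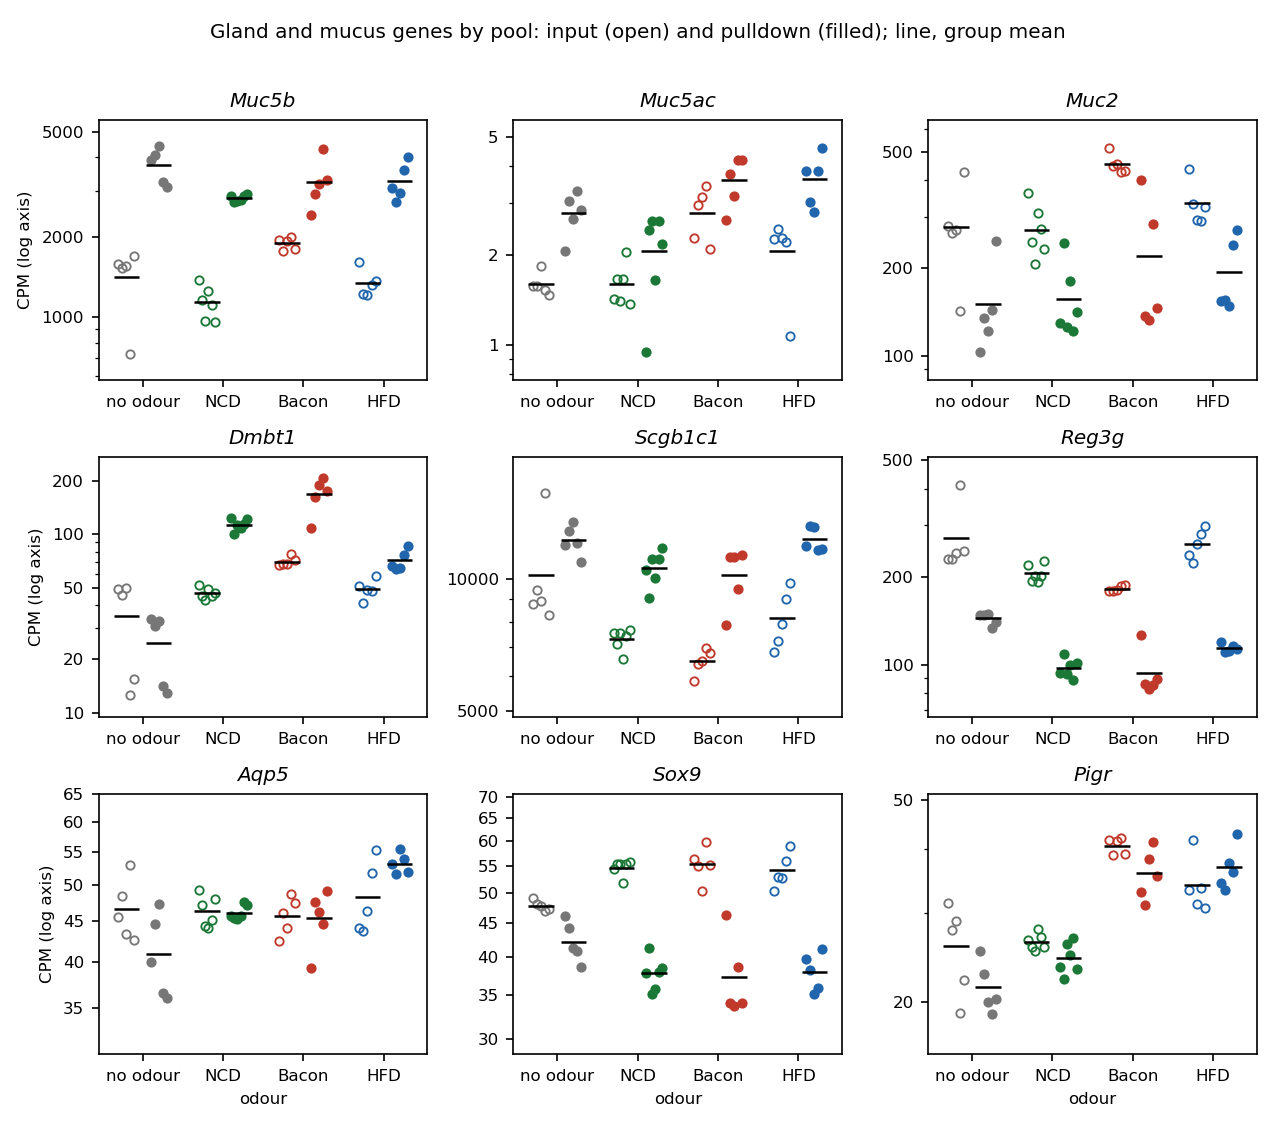
CPM of 9 genes in each pool on log axes, by odour, with the input as open and the pulldown as filled points and the group mean as a line. Dmbt1 pulldowns sit at 12.9 to 33.4 CPM without odour and at 63.9 to 206 CPM after any odour, while the pulldowns of Muc5b lie above and those of Reg3g below their inputs in every group.

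The first comparison asked which of these transcripts the pulldown held above or below the input without odour. Muc5b was enriched and Reg3g depleted. 2 of the 9 genes tested were called at an adjusted p below 0.001, beside 35.8% of all genes tested, so that the count says nothing particular to the set. At an adjusted p below 0.05 it was 9 of 9, beside 59.5%. The median log2 fold change (log2 FC) of the 9 genes was -0.19, beside 0.012 over all 21168 genes.

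Muc5b, the main gel-forming mucin of airway glands, was at 3925, 4090, 4410, 3226 and 3088 CPM in the pulldowns of no-odour pools 1, 2, 3, 4 and 6. The inputs of the same pools held 1590, 1531, 1553, 728 and 1696 CPM. Every pulldown lay above every input, and the input of pool 4 was the lowest of all 21. The fitted log2 FC of pulldown over input was 1.45 ± 0.13 (SE, adjusted p = 2.10e-09), a fold of 2.73. The ratio stayed above 1 in all 21 pools, from 1.24 in Bacon pool 1 to 4.43 in no-odour pool 4.

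Reg3g was at 148, 148, 149, 134 and 140 CPM in the no-odour pulldowns and at 231, 230, 241, 412 and 244 CPM in the inputs. All pulldowns lay below all inputs, and pool 4 had the highest input of the series. The log2 FC was -0.88 ± 0.11 (adjusted p = 3.62e-07), and -0.70 without pool 4. When the share of ribosomal RNA entered the fit it was -0.58 and missed the threshold (adjusted p = 0.00193).

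The other genes did not pass in edgeR. Muc5ac had a log2 FC of 0.78 ± 0.21 (adjusted p = 0.00278) and Scgb1c1 one of 0.31 ± 0.11 (adjusted p = 0.0146). Muc2, best known as the mucin of intestinal goblet cells, had -0.87 ± 0.25 (adjusted p = 0.00656), with ratios of 0.369 to 1.01. For Dmbt1 the value was -0.39 ± 0.10 (adjusted p = 0.00141), and for Aqp5, Sox9 and Pigr the log2 FC lay between -0.25 and -0.19. Several passed under another setting. DESeq2 called Muc2 (-0.89, adjusted p = 0.000842) and Dmbt1 (-0.42, adjusted p = 0.000159), and with the length index as a covariate edgeR called Muc2 (-1.57, adjusted p = 5.58e-06), Scgb1c1 (0.69, adjusted p = 5.02e-10) and Pigr (-0.42, adjusted p = 0.00049). Since the index is taken within inputs and within pulldowns, this covariate cannot adjust for a general length difference between pulldowns and inputs. Leaving out no-odour pool 4 brought Dmbt1 (-0.53, adjusted p = 3.34e-05) and Scgb1c1 (0.47, adjusted p = 4.40e-05) past the threshold.

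A list of 42 further gland, goblet and mucus genes gave a wider view, and 38 of them could be tested. Without odour 5 of the 38 were higher and 17 lower in the pulldown, beside 19.8% and 16% of all genes, with a median log2 FC of -0.28. Higher were the mucin-type glycosylation enzyme Galnt6 (0.98), the transmembrane mucin Muc13 (1.01), the mucus protein Fcgbp (1.10) and the secretory transcription factor Creb3l1 (0.63). The lowest p-values among the genes below the input belonged to the keratin Krt18 (-1.43), the chemokine Ccl28 (-1.06) and the water channels Aqp4 (-1.20) and Aqp3 (-1.57). Marker lists of other cell types also differed between pulldown and input: 8 of 8 supporting cell genes were lower (median log2 FC -1.65), and 7 of 7 erythroid, 6 of 8 neutrophil, 6 of 8 macrophage and 4 of 8 mature neuron genes were higher. The part of these cells in the values of the gland genes was not tested.

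The next comparisons asked whether a food odour altered the ratio of pulldown to input relative to no odour. In each of them Dmbt1 was the one gene of the set past the threshold in edgeR, and it was higher. These 3 comparisons share the 5 no-odour pools, so that they are not independent of each other. 1 of 9 genes was called with NCD, beside 0.524% of all genes (0.359% higher), 1 of 9 with Bacon, beside 3.78% (2.47% higher), and 1 of 9 with HFD, beside 1.22% (0.699% higher). At an adjusted p below 0.05 the counts were 2, 3 and 4 of 9, beside 13.1%, 22.5% and 15.7% of all genes. The median log2 FC of the 9 genes was 0.05 with NCD, -0.10 with Bacon and 0.05 with HFD, beside -0.0046, 3.8e-05 and -0.011 over all genes.

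Dmbt1 encodes a large secreted glycoprotein that binds bacteria and lies in the mucus of many epithelia. In the pulldowns without odour it was at 33.4, 30.7, 32.5, 14.1 and 12.9 CPM (pools 1, 2, 3, 4 and 6). With NCD odour the pulldowns held 101 to 123 CPM (median 113, n = 6), with Bacon odour 109, 162, 188, 206 and 174 CPM in pools 1 to 5, and with HFD odour 66.1, 63.9, 64.6, 76.5 and 85.6 CPM in pools 1, 2, 3, 5 and 6. No pulldown after an odour overlapped with those without odour, and the HFD pulldowns lay below all those of NCD and Bacon. Bacon pool 1, whose pulldown stood apart in the length index, was the lowest of the Bacon pools.

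Its input differed less. Without odour the inputs were at 49.5, 45.9, 50.1, 12.5 and 15.5 CPM, those with NCD at 42.7 to 52.3 (median 45.9), those with Bacon at 67.2, 67.9, 67.9, 77.0 and 71.8 and those with HFD at 51.2, 41.4, 48.9, 47.8 and 58.3 CPM. No-odour pools 4 and 6 were far below the other inputs, and the NCD and HFD inputs overlapped with no-odour pools 1 to 3.

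The ratio of Dmbt1 pulldown to input was 0.674, 0.668, 0.65, 1.13 and 0.833 without odour. It was 2.19 to 2.63 (median 2.44) with NCD, 1.62, 2.39, 2.77, 2.67 and 2.43 with Bacon, and 1.29, 1.54, 1.32, 1.60 and 1.47 with HFD. The pulldown held less Dmbt1 than the input in 4 of 5 pools without odour and more in all 16 pools with one, and the ranges did not overlap. The log2 FC over no odour was 1.67 ± 0.13 with NCD (SE, adjusted p = 5.36e-09), 1.62 ± 0.14 with Bacon (adjusted p = 1.48e-08) and 0.92 ± 0.14 with HFD (adjusted p = 0.000116). These are folds of 3.17, 3.07 and 1.89.

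Without no-odour pools 4 and 6 the log2 FC was 1.83, 1.82 and 1.09, each past the threshold. A fit without a term for the pool ended the call with NCD (1.77, adjusted p = 0.00179) and with HFD (1.02, adjusted p = 0.0555), and the transcript length index as a covariate ended it with HFD (0.96, adjusted p = 0.0033). A term for the replicate number in place of the pool ended all 3 calls (1.75, 1.74 and 1.01, adjusted p = 0.00384, 0.00188 and 0.0747). Markers of other cells differed between the same pulldowns: the summed CPM of 8 mature neuron genes ran from 15487 to 19290 without odour and from 17540 to 23918 after an odour, and that of 8 macrophage genes from 120 to 167 without odour and from 62.4 to 97.8 after one. Their part in the Dmbt1 values was not tested.

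**Figure D2:**
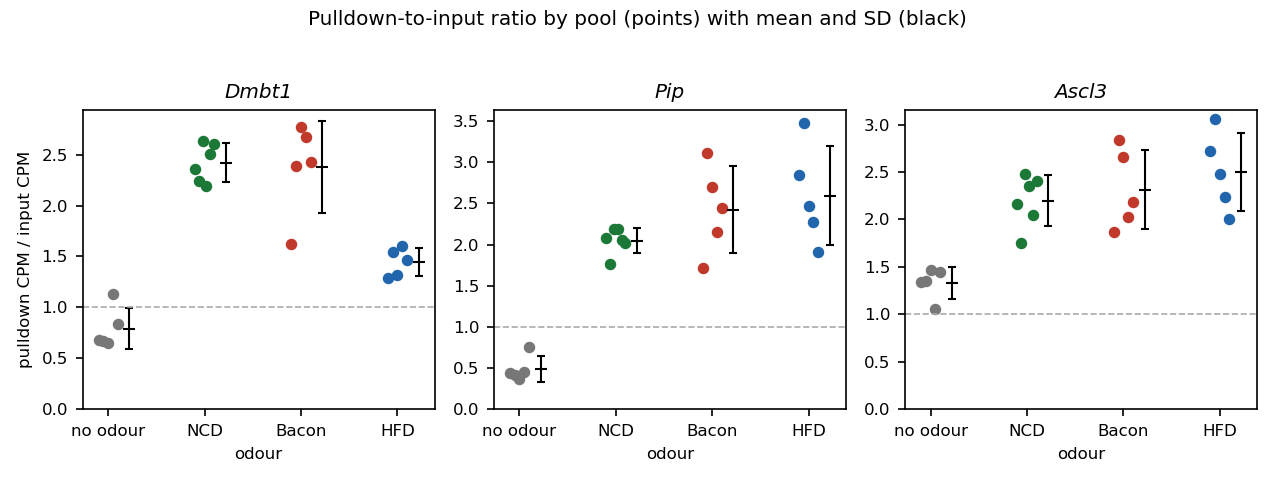
Ratio of pulldown CPM to input CPM in each pool for Dmbt1 and for Pip and Ascl3 of the wider gland list, by odour, with mean and SD in black and a dashed line at a ratio of 1. Dmbt1 lies at 0.65 to 1.13 without odour and at 1.29 to 2.77 after any odour, with the HFD pools below those of NCD and Bacon, while the HFD pools of Pip and Ascl3 overlap with those of the other odours.

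Between food odours, none of the 9 genes differed in the ratio at the threshold. In edgeR 0 genes were called for Bacon over NCD (beside 0.00945% of all genes), for HFD over NCD (0.0236%) and for HFD over Bacon (0.0378%), with 1, 1 and 3 genes at an unadjusted p below 0.05. DESeq2 with the same design called 0, 1 and 1, each time Dmbt1. At an edgeR adjusted p below 0.05 the counts were also 0, 1 and 1, beside 0.0283%, 0.0709% and 0.109% of all genes. The unadjusted and DESeq2 counts have no such share beside them and are no result about the set. Dmbt1 had a log2 FC of -0.75 ± 0.13 for HFD over NCD (edgeR adjusted p = 0.00771, DESeq2 adjusted p = 5.39e-05) and of -0.70 ± 0.13 for HFD over Bacon (0.0177 and 0.0004). Without Bacon pool 1, whose pulldown stood apart, both passed in edgeR (adjusted p = 0.000266 and 0.000135), and without no-odour pool 4 the first did (0.000906). For Bacon over NCD the log2 FC of Dmbt1 was -0.05, with a 95% interval of -0.29 to 0.20.

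Sox9, a transcription factor of gland and duct progenitors, had ratios of 0.813 to 0.939 without odour, 0.632 to 0.745 with NCD, 0.614 to 0.821 with Bacon and 0.64 to 0.785 with HFD. Only Bacon pool 1 reached into the no-odour range. The log2 FC was -0.35 ± 0.08 with NCD (adjusted p = 0.00637), -0.39 ± 0.08 with Bacon (adjusted p = 0.00149) and -0.33 ± 0.08 with HFD (adjusted p = 0.00954), none past the threshold in edgeR. DESeq2 with the same design called Sox9 with Bacon (-0.38, adjusted p = 0.000207), and DESeq2 on pulldown counts over input called it with NCD and Bacon (adjusted p = 0.000769 and 0.000363). Without Bacon pool 1 the Bacon value was -0.47 and passed (adjusted p = 7.86e-05). The Sox9 pulldowns overlapped, at 38.5 to 46.1 CPM without odour (mean 42.2) and 33.6 to 46.3 after any odour (mean 37.6). The lower ratios also went with higher inputs, at 50.5 to 59.9 CPM after any odour against 46.9 to 49.1 without.

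Muc5b had a log2 FC of -0.71 ± 0.18 with Bacon (adjusted p = 0.0062), -0.13 ± 0.17 with NCD and -0.17 ± 0.18 with HFD. The Bacon value went with higher inputs, at 1775 to 2011 CPM against 728 to 1696 without odour, while the pulldowns overlapped. With NCD the pulldowns, at 2723 to 2911 CPM, were all below those without odour, and the NCD inputs, at 957 to 1384 CPM, were below the inputs of all no-odour pools except pool 4. With no-odour pool 6 left out, the Bacon value of Muc5b was -0.85 and passed the threshold in edgeR (adjusted p = 0.000962), and DESeq2 on pulldown counts over input called it too (-0.74, adjusted p = 0.000228). Aqp5, which lets water into gland secretions, had 0.34 ± 0.10 with HFD (adjusted p = 0.0195), and Pigr 0.37 ± 0.12 with HFD (adjusted p = 0.0356). For Muc2, Muc5ac and Scgb1c1 the adjusted p was 0.104 or more with each of the 3 odours.

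For Reg3g the pulldown level and the ratio gave different pictures. Its pulldowns after any odour held 82.5 to 126 CPM, all below the 134 to 149 CPM without odour. Its inputs were also lower with NCD (191 to 226) and Bacon (179 to 187) than without odour (230 to 412 CPM). The ratios overlapped with NCD and HFD through no-odour pool 4 alone, at 0.325: the other no-odour ratios were 0.574 to 0.643, above all those with NCD (0.427 to 0.565) and HFD (0.379 to 0.505), while Bacon pool 1 at 0.706 lay above them. The log2 FC of the ratio was -0.20 ± 0.15 with NCD, -0.10 ± 0.16 with Bacon and -0.30 ± 0.15 with HFD, with adjusted p-values of 0.418, 0.717 and 0.2. Without no-odour pool 4 it was -0.37, -0.27 and -0.48, still short of the threshold (edgeR adjusted p = 0.0315, 0.101 and 0.00722). The pulldown level by itself was not tested.

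**Figure D3:**
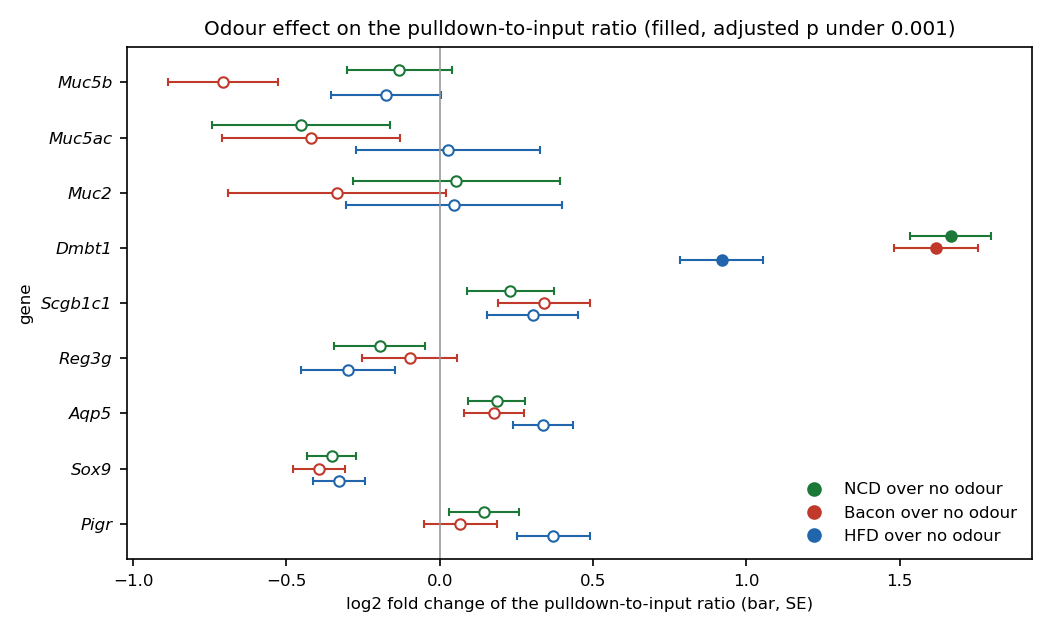
Log2 fold change of the pulldown-to-input ratio after each odour over no odour for 9 genes, with the SE as bars and filled points where the adjusted p was below 0.001. Dmbt1 is the one gene with filled points, at 1.67, 1.62 and 0.92.

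Of the 38 wider gland genes, 2 were higher with NCD, 3 with Bacon and 4 with HFD, and 0 were lower at the threshold, beside 0.359%, 2.47% and 0.699% of all genes higher, with 17, 19 and 20 genes in either direction at an unadjusted edgeR p below 0.05. DESeq2 called 5, 7 and 8. Unadjusted and DESeq2 counts, here and below, have no share of all genes beside them and are no result about the lists. At an edgeR adjusted p below 0.05, 9 of the 38 were higher with each odour, and 4, 3 and 4 were lower. Of all genes, 13.1%, 22.5% and 15.7% were called there in either direction. The median log2 FC of the 38 genes was -0.013, 0.088 and 0.135. Pip, a secreted glycoprotein of lacrimal, salivary and nasal glands, was called with all 3 odours. Its ratio was 0.438, 0.412, 0.371, 0.455 and 0.759 in no-odour pools 1, 2, 3, 4 and 6 and 1.72 to 3.48 in the pools with an odour, without overlap. The log2 FC was 2.15 ± 0.17, 2.37 ± 0.18 and 2.46 ± 0.17 with NCD, Bacon and HFD (adjusted p = 5.55e-09, 2.19e-09 and 8.52e-10). Ascl3, a transcription factor of ion-secreting duct cells and of microvillar cells, was also called with all 3, at 0.73, 0.79 and 0.90.

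Gcnt3, an enzyme that branches mucin sugar chains, was called with Bacon (0.50) and HFD (0.69), and Bhlha15, a transcription factor of serous secretory cells, with HFD (0.79). Between food odours 0 of the 38 were called, with 4 for Bacon over NCD, 1 for HFD over NCD and 5 for HFD over Bacon at an unadjusted edgeR p below 0.05 and 0 by DESeq2. In the ratio with NCD, Bacon and HFD over no odour, 0 of 8 macrophage genes were called in edgeR, with 6, 4 and 7 at an unadjusted p below 0.05 and 0, 0 and 1 called by DESeq2. Of 8 supporting cell genes 0 were called by either tool, with 0, 1 and 0 at an unadjusted p below 0.05. Other lists held calls in edgeR, named here after their values were seen: Derl3 of the plasma cell list was higher with Bacon (1.152) and HFD (1.22), Igha of the same list was lower with HFD (-0.69), and Omp of the mature neuron list was higher with Bacon (0.64). Of the 7 plasma cell genes tested, 5 had a negative log2 FC with Bacon and 5 with HFD. The part of these cells in the ratios of the gland genes was not tested.

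The inputs asked a different question, whether the level in the tissue itself differed between pools. Over any odour against none, Scgb1c1 was the one gene called by edgeR, and it fell: 1 of 9, beside 12% of all genes (6.73% lower). That count is near the share of all genes and says nothing particular to the set. At an adjusted p below 0.05 it was 6 of 9, beside 37.2%. Without odour its inputs held 8784, 9430, 8933, 15812 and 8295 CPM in pools 1, 2, 3, 4 and 6. After an odour they held 6552 to 7674 with NCD (median 7488), 5841, 6410, 6494, 6947 and 6770 with Bacon, and 6832, 7219, 7920, 8999 and 9816 with HFD. The NCD and Bacon inputs lay below all no-odour inputs, the HFD inputs overlapped with them, and pool 4 was far above.

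The log2 FC of Scgb1c1 was -0.49 ± 0.11 (adjusted p = 0.000765). It was -0.29 without no-odour pool 4, where it missed the threshold (adjusted p = 0.00255), and 0.095 with the ribosomal RNA share and 0.076 with the length index as a covariate, where neither passed. Scgb1c1 is the shortest of the 10 genes, with 455 bases of exon. The part of transcript length or ribosomal RNA in the difference was not tested further.

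Sox9 inputs were at 46.9 to 49.1 CPM without odour and at 50.5 to 59.9 after any odour, without overlap, but the log2 FC of 0.19 ± 0.04 missed the threshold in edgeR (adjusted p = 0.0013). Pigr had 0.36 ± 0.08 (adjusted p = 0.00133), and DESeq2 called both Sox9 and Pigr (adjusted p = 6.84e-05 and 0.000185). In edgeR, Dmbt1 had 0.65 ± 0.24 (adjusted p = 0.038) and Reg3g -0.35 ± 0.10 (adjusted p = 0.00555). Muc5b had 0.0073 and Aqp5 0.0054, with 95% intervals of -0.24 to 0.26 and -0.11 to 0.12. Of the 38 wider gland genes, 3 rose, Sox10 (0.33), Muc4 (0.35) and Bhlha15 (0.62), and 1 fell, the trefoil peptide Tff2, by 0.64 on the log2 scale. Beside 12% of all genes called, this count says nothing particular to the list.

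Dmbt1 was not alone in being low in the inputs of no-odour pools 4 and 6. Bhlha15 was at 13.7 and 15.98 CPM there and at 27.3 to 30.0 in pools 1 to 3. Pip was at 8.98 and 4.64 CPM against 13.8 to 16.7, and Pigr at 19.0 and 22.1 against 27.8 to 31.4. Muc2 did not follow, with the lowest input in pool 4 at 142 CPM and the highest in pool 6 at 426, nor did Muc5b, at 728 and 1696 CPM. Muc5ac was slightly lower in both pools, at 1.53 and 1.47 CPM against 1.58 to 1.85. These genes were named after their values were seen, and no test was made of 2 pools picked for their values.

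Among food odours, Pigr alone of the 9 genes was called by edgeR in the inputs, where it was higher with Bacon than with NCD: 1 of 9, beside 0.108% of all genes (0.0685% higher). At an adjusted p below 0.05 it was 4 of 9, beside 2.63%. Its inputs were at 25.2 to 27.9 CPM with NCD (median 26.1), at 41.7, 38.9, 41.5, 42.1 and 39.2 with Bacon and at 33.2, 41.7, 31.2, 33.6 and 30.6 with HFD. All Bacon and HFD inputs lay above all NCD inputs. The log2 FC of Bacon over NCD was 0.63 ± 0.09 (adjusted p = 0.000501), a fold of 1.55, and that of HFD over NCD was 0.37 ± 0.09 (adjusted p = 0.137). The first missed the threshold without any 1 of the 6 NCD or 5 Bacon pools and without HFD pool 1 (log2 FC 0.62 to 0.65), and with the length index as a covariate (0.46, adjusted p = 0.00279).

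The pulldowns of Pigr were likewise above all NCD pulldowns with Bacon and HFD, at 22.2 to 26.8 CPM with NCD, 31.1 to 41.5 with Bacon and 33.2 to 43.0 with HFD. Bacon had the higher mean in the inputs (40.7 against 34.1 CPM with HFD) and HFD in the pulldowns (36.9 against 35.9 CPM), and the ratios overlapped between all groups. Pigr moves dimeric IgA, which plasma cells make. Of 7 plasma cell genes tested in the inputs, 3 were higher with Bacon than with NCD, Igha (1.08 ± 0.09, adjusted p = 6.78e-08), Igkc (0.97 ± 0.11, adjusted p = 1.48e-05) and Jchain (1.24 ± 0.17, adjusted p = 0.000128). With HFD over NCD, Igha (1.08 ± 0.09) and Igkc (0.98 ± 0.11) were higher. The summed CPM of the 8 plasma cell genes was 39.5 to 45.0 with NCD, 64.0 to 71.8 with Bacon, 60.7 to 77.4 with HFD and 41.3 to 57.9 without odour. These genes were named after their values were seen, and their part in the Pigr values was not tested.

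The 3 mucins were also higher in Bacon inputs without passing the threshold in edgeR, while DESeq2 called Muc5b (0.73, adjusted p = 0.00015). For Bacon over NCD the log2 FC was 0.74 ± 0.15 for Muc5b (adjusted p = 0.014), 0.80 ± 0.17 for Muc5ac (adjusted p = 0.0165) and 0.75 ± 0.19 for Muc2 (adjusted p = 0.0448). Bacon inputs of Muc5b held 1961, 1775, 1928, 2011 and 1811 CPM against 957 to 1384 with NCD (median 1137), and those of Muc2 425 to 517 against 207 to 361, without overlap in either. The 3 mucins have 7127 to 14964 bases of exon. The length index was higher in every Bacon input (0.17 to 0.32) than in every NCD input (-0.10 to 0.14). Of the inputs outside Bacon, only that of HFD pool 2 lay in the Bacon range, at 0.24. It held 1217 CPM of Muc5b and 332 of Muc2, below all Bacon inputs, and 2.46 of Muc5ac, within their range of 2.10 to 3.43. None of the mucins passed in edgeR with the index as a covariate, but none had passed without it. That outcome therefore cannot show whether the index bears on the difference. The part of transcript length in these values was not tested further. Without no-odour pool 4, which enters the shared estimate of the spread, Muc5b passed (0.73, adjusted p = 3.27e-06). For HFD over NCD and for HFD over Bacon 0 of the 9 genes were called in edgeR, beside 0.0538% and 0.0831% of all genes, with 3 and 6 at an unadjusted p below 0.05, and DESeq2 also called 0 in both. At an adjusted p below 0.05 edgeR again called 0 in both, beside 0.249% and 0.489% of all genes. The largest value was that of Reg3g, at 0.51 ± 0.12 for HFD over Bacon (adjusted p = 0.0534), which passed without no-odour pool 4 (0.52, adjusted p = 1.51e-05).

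**Figure D4:**
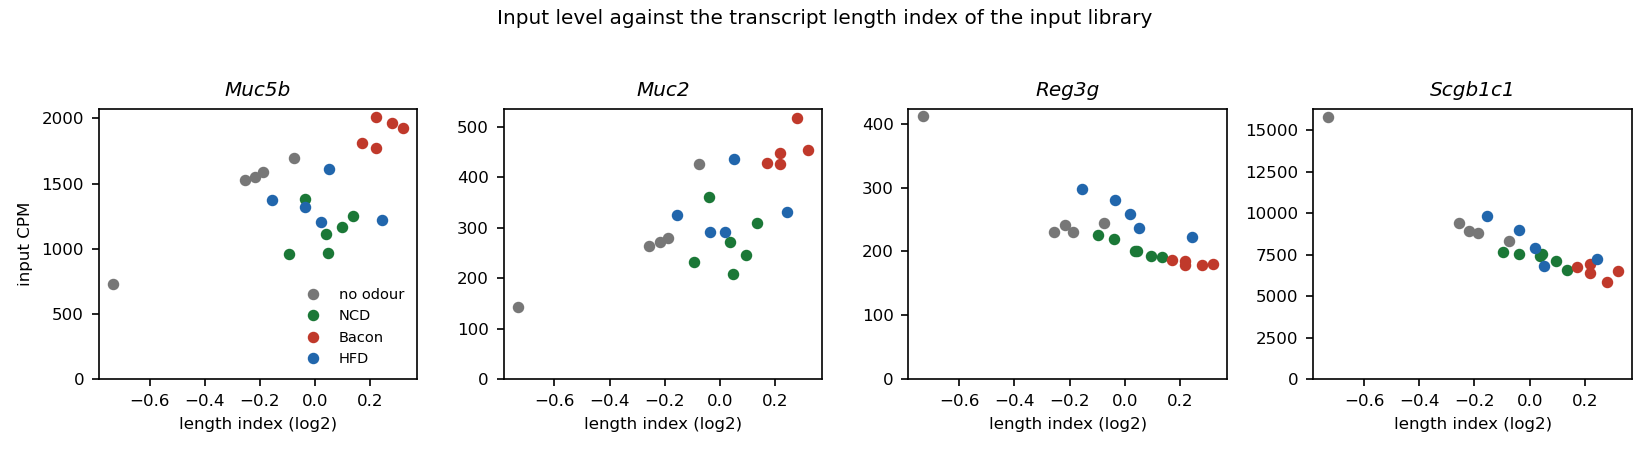
Input CPM of Muc5b, Muc2, Reg3g and Scgb1c1 against the transcript length index of the same input library (log2), coloured by odour. No-odour pool 4, at an index of -0.73, has the lowest level of Muc5b (728 CPM) and Muc2 (142) and the highest of Reg3g (412) and Scgb1c1 (15812). The Bacon inputs lie at an index of 0.17 to 0.32, as does HFD pool 2 at 0.24. Bacon inputs hold the highest levels of Muc5b and the lowest of Reg3g, and overlap with other inputs in Muc2 and Scgb1c1.

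Within the odour groups, the levels of these genes in the input went with the balance of long and short transcripts in opposite directions. As deviations from the group means of log2 CPM over the 21 inputs, the correlation with the length index was -0.93 for Reg3g, -0.92 for Scgb1c1 and -0.81 for Aqp5, genes with 2599 bases of exon or fewer. It was 0.70 for Muc5b, 0.68 for Muc2 and 0.67 for Pigr. Without no-odour pool 4 the first 3 were -0.82, -0.78 and -0.80, and the others 0.09, 0.31 and 0.33, so that the positive values rested mainly on that pool. Muc5ac was at 0.38 and 0.54, Dmbt1 at 0.31 and -0.49 and Sox9 at -0.25 and -0.56 with and without it. The points share library preparation and normalization, and the values are descriptions.

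The genes most alike in the same deviations over the 21 inputs were mostly not gland genes. Muc5b went with Map1a (Pearson's r = 0.98) and Srrm2 (0.97), with 12166 and 12842 bases of exon. Reg3g went with Ppia (0.97) and Ndufab1 (0.97), with 3508 and 6883 bases. Scgb1c1 went with Agr2 (0.97), a disulfide isomerase needed for mucin folding that is on the wider gland list, and with Mgst1 (0.97). Dmbt1 was closest to Gm6619 (0.95) and 5430401F13Rik (0.94), with 608 and 769 bases. Muc2 was closest to Usp48 (0.96) and Ccdc187 (0.95), Aqp5 to Emd (0.93) and Mrpl41 (0.92), Pigr to Aldh1l2 (0.92) and 4933431E20Rik (0.89), Muc5ac to Ofd1 and Cxcl16 (0.82 and 0.80) and Sox9 to Sf3a1 and Olfr1366 (0.80 and 0.78). Without no-odour pool 4 these values lay between 0.79 and 0.97.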

How the data were processed

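RNA-seq libraries of pulldown and input RNA from 21 pools were made by the authors after whole-transcriptome amplification of low-input RNA, and no strand setting is given in the sources used here. Reads were quantified by the authors per gene on GRCm38, using Salmon within the nf-core workflow, and each expected count (an estimated count) was deposited without normalization for 42 libraries. 30.9% of the values are not whole, since reads that fit several genes are shared out by estimation. Names from GENCODE M21 matched 44118 of the 44674 identifiers, and the other 556 hold 0.525% of the counts and stayed in the tests.

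Counts were rounded. Genes were kept by filterByExpr (minimum count 10), scaled by TMM and fitted with edgeR's robust quasi-likelihood test (edgeR 4.0.16, limma 3.58.1, R 4.3.3). Ratios were fitted over all 42 libraries (21168 genes) with a term for each pool, which rests on the methods, and pulldown-by-odour terms, and inputs over 21 libraries (20451 genes) by odour, with any odour as the mean of the 3 odours. P-values are two-sided and Benjamini-Hochberg adjusted over all genes tested, with a threshold of 0.001, as in the study's methods. The deposited values precede the authors' division by input. Log2 CPM used a prior count of 2. Nothing in the labels says whether pools were handled on separate days, so p-values measure the spread between these pools.

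The common biological coefficient of variation was 12.0% (ratios) and 11.7% (inputs). Depth was 25392812 to 36738330 counts in pulldowns (median 30313284) and 24839555 to 36781553 in inputs (median 31457188). The smallest chi-square per degree of freedom between libraries of a group was 3.33 over 90 pairs, so each counted once. On simulated data for NCD over no odour (20824 genes), the ratio fit recovered 46 of 100 genes changed 2-fold and 72 of 100 changed 4-fold, and the input fit for any odour (20233 genes) 73 and 96, each with 0 wrong calls. Apart from these changes, a simulated gene had the same mean in every library, without differences between pools or between pulldown and input. Recovery and wrong calls may therefore differ in the real data.

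Members, marker lists and tests were chosen with earlier results of these data known. All 10 members are named. Other gland genes were named where called, up to 4 in each direction by smallest p, and for each member the 2 genes most alike over the inputs. Alternatives were DESeq2 1.42.0 (size factors, the same design, or pulldown divided by input), no filter, an adjusted p of 0.05, no pool term, a replicate number term, the ribosomal RNA share as a covariate, CPM without TMM factors or without ribosomal RNA, and leaving out each pool. The length index and leaving out no-odour pools 4 and 6 together were added after the data were seen. The index compares genes with at least 6827 and at most 2823 bases of exon. No set test was run.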

Additional observations from a re-analysis of the deposited data

Results flagged for a closer look

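Among 108 groups of 5 or 6 pools (9 genes, 4 odours, pulldown, input and ratio), 15 held a pool whose gap to the nearest other pool exceeded Dixon's 95% critical value, where chance gives about 1 in 20. The groups are not independent: each ratio comes from the same pulldown and input, and the genes share libraries. An odd library can therefore count several times. The explanations were not tested.

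5 of them were no-odour pool 4. Its input held 728 CPM of Muc5b (others 1531 to 1696), 15810 of Scgb1c1 (8295 to 9430) and 412.4 of Reg3g (230.2 to 244.4), and its ratio was 0.7654 for Scgb1c1 (1.319 to 1.517) and 0.3245 for Reg3g (0.574 to 0.6434).

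Bacon pool 1 was apart in the Reg3g pulldown at 126.1 CPM (82.47 to 89.21), the Reg3g ratio at 0.7058 (0.4591 to 0.4816) and the Sox9 ratio at 0.8207 (0.6145 to 0.6665).

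Muc5ac, a gene of few counts, was apart in HFD pool 6, with an input of 1.075 CPM (2.223 to 2.458) and a ratio of 4.261 (1.221 to 1.726), and in Bacon pool 5, with a ratio of 1.985 (1.013 to 1.266). Muc2 was apart in the pulldown of no-odour pool 6 at 248.5 CPM (102.9 to 143.7) and in the input of HFD pool 1 at 435.4 (290.4 to 331.5). Sox9 was lower in the input of NCD pool 4 at 51.8 CPM (54.41 to 55.78), and Pigr higher in that of HFD pool 2 at 41.7 (30.64 to 33.62).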

How the results depend on the processing

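Of the 7 calls, 167 of 211 values under an alternative stayed past the threshold in the same direction, 42 missed it and 2 reversed: Scgb1c1 in the inputs with the ribosomal RNA share (0.095, adjusted p = 0.958) or the length index (0.076, adjusted p = 0.697) as a covariate. The cause was not tested. Over the pairs of gene and comparison that were not called, 100 of 2777 values changed sign.

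The counts of called genes depended on the settings. At an adjusted p of 0.05 they were 9 (pulldown over input without odour, 2 at 0.001), 2, 3 and 4 (NCD, Bacon and HFD over no odour, 1 each at 0.001), 1 and 1 (HFD over NCD and over Bacon in the ratio, 0 at 0.001), 6 (inputs, any odour) and 4 (inputs, Bacon over NCD). The DESeq2 Wald test gave 4 without odour, 2 for Bacon over no odour, 1 and 1 for HFD over NCD and over Bacon, 3 for inputs after any odour and 2 for inputs of Bacon over NCD. With pulldown counts divided by input, DESeq2 called 2, 3, 1 and 1 for NCD and Bacon over no odour and for HFD over NCD and over Bacon. With the ribosomal RNA share 1 was called without odour and 0 in the inputs for any odour and for Bacon over NCD. With the length index 5 were called without odour, 0 for HFD over no odour, 0 and 0 in the inputs for any odour and Bacon over NCD, and 1 for HFD over NCD (Reg3g, 0.33). Without no-odour pools 4 and 6 it was 4 without odour and 0 in the inputs for any odour. Apart from the adjusted p of 0.05, no shares of all genes stand beside these counts or those with each pool left out. The counts are therefore no result about the set.

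Leaving out each pool gave 2 to 4 without odour, 1 to 1 for NCD and for HFD, 1 to 2 for Bacon, 0 to 0 for Bacon over NCD, 0 to 1 for HFD over NCD and over Bacon, and in the inputs 0 to 2 for any odour and for Bacon over NCD, 0 to 0 for HFD over NCD and 0 to 1 for HFD over Bacon. The log2 fold change of Dmbt1 stayed within 1.60 to 1.80, 1.56 to 1.75 and 0.87 to 1.05 for NCD, Bacon and HFD.

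Whether the replicate numbers pair the samples was not settled. Inputs of different odours with the same number had a median correlation of 0.02 (-0.156 to 0.158, 27 pairs), against -0.0011 for different numbers (138 pairs). A replicate block in place of the pool term called 0 genes for NCD, Bacon and HFD over no odour (Dmbt1 1.75, 1.74 and 1.01) and 0 in the inputs for any odour and Bacon over NCD. With no replicate block and no pool term 0 were called for NCD and for HFD. A pulldown and its own input, which come from the same pool, had a median correlation of 0.016 (21 pools), against -0.0045 for other inputs of the group. Such correlations are low even for libraries known to be paired, so they cannot decide whether the replicate numbers pair samples.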
